A study of Mus musculus with 2 samples.

Results

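The cytosolic ribosomal protein genes of the mouse were examined in total RNA of adult liver. Members were the protein-coding genes present in both gene quantifications whose GENCODE symbol is Rpl or Rps followed by a number and an allowed suffix, or Rplp0, Rplp1, Rplp2 or Rpsa. The rule used names only and no measured value. It took 83 genes of 43346 endogenous genes, of which 21474 are protein-coding. Of these, 77 encode the standard subunits and are called core members, 46 of the large and 31 of the small subunit. The other 6 are tissue paralogs: Rpl3l, Rpl7l1, Rpl10l, Rpl22l1, Rpl39l and Rps27l. A further 6 matching symbols, such as Rps4l and Rps12l1, are processed pseudogenes in the annotation and were left out. Fau and Rack1 encode ribosomal proteins but have other names, so they are given apart.

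RNA longer than 200 nucleotides was sequenced from whole liver of C57BL/6J mice, adult and 8 weeks old, in 2 libraries that are biological replicates 1 and 2 of 1 group. No genotype, treatment or other condition was given, so no contrast between groups exists and no p-value was computed. The labels name a separate biosample for each library but a shared donor entry, and sex was not collected. Whether separate animals were used is not stated, so the spread between libraries may be technical.

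A ribosome joins a large subunit, which forms peptide bonds, to a small subunit, which reads the mRNA. Each holds ribosomal RNA and a set of proteins that, apart from the P-stalk proteins, are present in a single copy. Their mRNAs are classed as TOP mRNAs, which begin with a C and a run of pyrimidines that places their translation under mTORC1. Mammalian genomes also carry many processed pseudogenes of these genes, and a few paralogs that are used in particular tissues. Hepatocytes make most plasma proteins and hold many ribosomes.

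Levels are endogenous TPM, a per-length measure rescaled without the spike-ins. A value in replicate 1 stands before that in replicate 2. Endogenous genes held 83816492 expected counts in replicate 1 and 71068181 in replicate 2. The sum of 8 hepatocyte markers was 12731 and 20878 TPM, with all 8 detected. Markers of other tissues moved between the libraries: 10 pancreatic acinar genes summed to 142 and 46.9 TPM, all 10 detected in both. The 10 skeletal muscle genes summed to 7.94 and 0.331 TPM, with 5 of 10 at 0 in replicate 2. Erythroid markers summed to 132 and 262 TPM, though none of the 5 tested lay over 2-fold apart by the scaled ratio given later. The 8 B and plasma cell markers summed to 1.74 and 13.3 TPM. The 6 adrenal cortex markers summed to 0.181 and 13.8 TPM, with 2 of them at 0 in replicate 1. In such bulk tissue, fewer cells of a type and less RNA per cell cannot be told apart.

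The 83 genes held 0.445% of endogenous TPM in replicate 1 and 0.667% in replicate 2, a mean of 0.556% ± 0.157 (SD, n = 2). Noncoding RNAs are in that denominator, and over protein-coding genes alone the share was 3.65% and 4.08% (3.86% ± 0.303). Of endogenous expected counts, which are fragments and not per length, the family held 0.836% and 0.964% (0.900% ± 0.0906), or 700706 and 685143 counts. Core large subunit genes held 2.05% and 2.32% of protein-coding TPM, and core small subunit genes 1.54% and 1.71%.

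Detection meant at least 1 TPM in each library. All 77 core genes met it, and with Rpl7l1, Rpl22l1 and Rps27l this made 80 of the 83 members. The same threshold was met by 31.0% of all protein-coding genes. The 3 members not detected were Rpl3l, Rpl10l and Rpl39l.

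The core median was 47.2 and 68.1 TPM (57.7 ± 14.8, SD, n = 2), against 3.06 and 4.38 TPM for the 6584 other protein-coding genes detected in both. Every core gene lay above that median of other genes in both libraries. Of the 100 most abundant protein-coding genes, 3 were core members, and of the top 500, 54. The family was thus high as a group without filling the top of the liver mRNA list.

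Although the proteins are needed in about equal numbers, their mRNA levels were not equal. The middle of the core ran from 27.8 to 77.8 TPM in replicate 1 and from 38.3 to 111 TPM in replicate 2 (25th to 75th percentile). The highest core gene was 22.95-fold above the lowest in replicate 1 and 21.3-fold in replicate 2, and without the lowest, Rpl27, the folds were 19.8 and 17.4. The SD of log2 TPM across core genes was 1.06 and 1.02, against 1.74 and 1.71 across the other detected protein-coding genes. The order of the members was nearly the same in both libraries (Spearman rho 0.98 over 77 genes, which share gene models and length scaling).

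**Figure D1:**
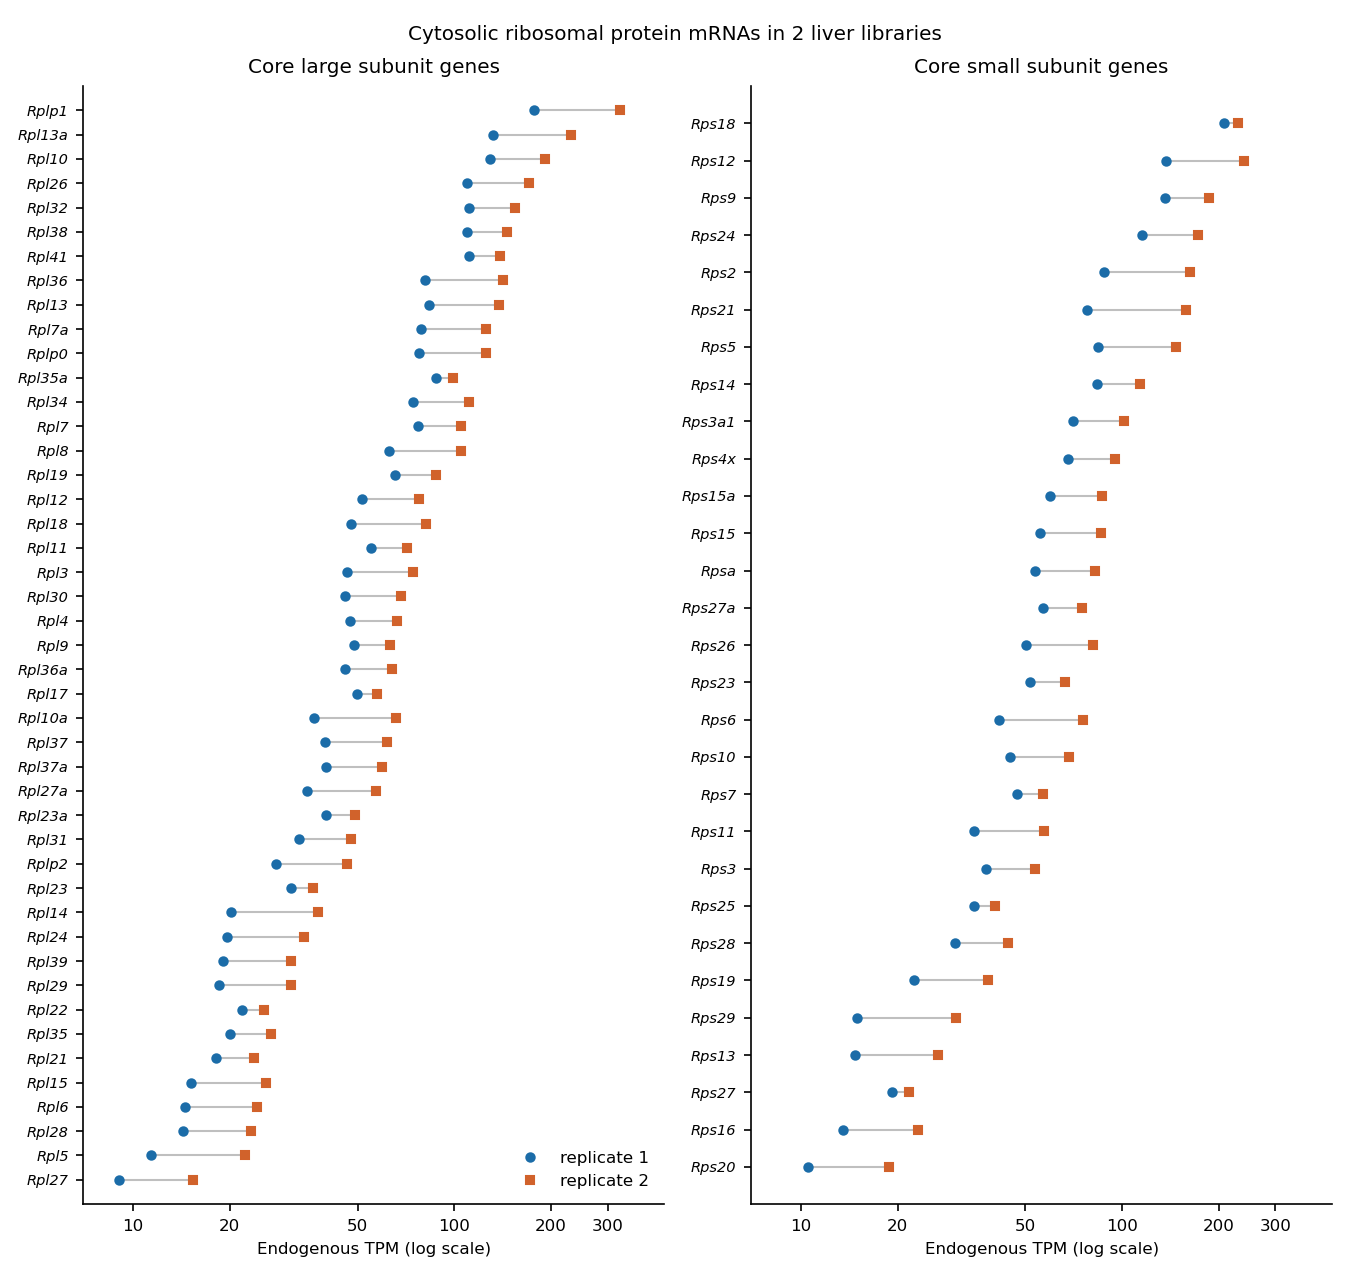
Endogenous TPM (log axis) of core large subunit genes (left) and small subunit genes (right), without 3 that are not reported here, sorted by mean, with a circle for replicate 1 and a square for replicate 2 joined by a line. Levels run from 9.04 TPM (Rpl27, replicate 1) to 328 TPM (Rplp1, replicate 2), and replicate 2 is the higher in every gene drawn. With deposited TPM, 93.0% of all genes tested were also higher in replicate 2. By the scaled ratio given later, 30 of the 77 core genes were higher in replicate 1.

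Among large subunit genes, Rplp1, which encodes an acidic protein of the P-stalk that recruits elongation factors, was highest at 177 and 328 TPM. Its stalk partner Rplp2 had 27.8 and 46.2 TPM, and Rplp0, the base of the stalk, 77.4 and 126 TPM. So the 3 stalk genes differed several-fold among themselves, with Rplp2 lowest in both libraries. Rpl13a followed Rplp1 at 132 and 231 TPM. Rpl10, whose protein joins late in subunit maturation, had 129 and 192 TPM. Rpl26 had 110 and 170 TPM, and Rpl32 111 and 155 TPM, so that these neighbours overlapped in their ranges. At the other end stood Rpl27 with 9.04 and 15.4 TPM, though 77.1% and 73.4% of the joint counts of Rpl27 and its named pseudogenes lay on the pseudogenes. Rpl5, whose protein binds 5S ribosomal RNA and can hold back Mdm2, had 11.3 and 22.3 TPM. Rpl28 had 14.3 and 23.3 TPM and Rpl6 14.5 and 24.2 TPM, closer together than the libraries are.

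Among small subunit genes, Rps18 was highest at 208 and 229 TPM. Rps12 had 136 and 239 TPM and was the higher of the pair in replicate 2 only, so their order was not fixed. Rps9 had 136 and 187 TPM. Rps24, mutated in some human patients with Diamond-Blackfan anaemia, had 115 and 172 TPM, and Rps2, near the mRNA entry channel, 87.5 and 163 TPM. The lowest was Rps20 with 10.5 and 18.9 TPM, then Rps16 with 13.5 and 23.1 TPM, Rps27 with 19.2 and 21.8 TPM, Rps13 with 14.7 and 26.7 TPM and Rps29 with 14.9 and 30.4 TPM.

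The subunits did not separate. The median small subunit gene had 51.8 and 75.6 TPM, and the median large subunit gene 45.9 and 64.8 TPM. The log2 ratio of these medians, small over large, was 0.17 and 0.22. The spread within a subunit was far wider: the SD of log2 TPM was 1.04 and 1.00 in the small and 1.07 and 1.05 in the large subunit.

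A level is divided by the length of its gene model, and these lengths differed widely. Rps20 had 11076 and 12683 expected counts, more than most small subunit genes, but the highest effective length of the core, 3349 and 3344 nucleotides. Its transcript Rps20-203, of 3706 nucleotides, took 95.4% and 94.9% of the gene's TPM. Rps27 was the opposite, with 270 and 237 counts, the fewest of the core, over an effective length of 44.5 and 54.1 nucleotides. Its level therefore rests on few fragments and a small divisor. Across the core, level and effective length had a rho of -0.31 in replicate 1 and -0.30 in replicate 2 (77 genes; length enters both measures). Level and coding length gave 0.02 and 0.05 (71 genes).

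The start of the transcript is where a TOP mRNA is defined, so the RefSeq windows (GRCm38.p6) were searched, of which 67 matched 57 of the core genes. The 5 most abundant core genes with a run of at least 8 pyrimidines from 10 bases before to 20 after the annotated start are shown, 30 bases each, with that run in capitals. They are Rps18 at chr17:33955646-33955675 (minus strand), Rps12 at chr10:23787190-23787219 (minus), Rpl13a at chr7:45128726-45128755 (minus), Rps9 at chr7:3704031-3704060 (plus) and Rps24 at chr14:24490668-24490697 (plus).
Rps18: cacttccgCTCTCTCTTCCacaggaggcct
Rps12: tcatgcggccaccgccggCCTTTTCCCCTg
Rpl13a: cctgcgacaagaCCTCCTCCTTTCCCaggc
Rps9: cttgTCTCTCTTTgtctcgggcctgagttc
Rps24: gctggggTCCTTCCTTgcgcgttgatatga
In the same 30 bases, a run of 8 or more C or T on the sense strand occurred in 34.3% of core windows, against 11.2% of all 32851 windows. The hexamer CTTTCC, read on the sense strand, was in 13.4% of core windows against 1.28% of all. Over the whole 300 bases, GGAAGT on either strand, the core of an ETS-family site, was in 47.8% against 23.8%. GCCATCTT on either strand, part of a YY1 site, was in 10.4% against 2.75%. TATAAA on the sense strand was in 7.46% against 8.32%. These are matches of letters to windows, and not bound sites.

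Between the tissue paralogs and their parents, only Rps27l was the more abundant of its pair. Rps27l, a gene that p53 can induce, had 58.4 and 71.2 TPM, against 19.2 and 21.8 TPM for Rps27, which is 3.04-fold and 3.27-fold higher. By counts it held 5455 and 4334, against 270 and 237 for Rps27. The Rps27 level carries the small effective length given above, and that of Rps27l was 297 and 303 nucleotides. The quantified Rps27 model was 255 nucleotides long, while its transcript Rps27-201 has 345 nucleotides in the newer annotation. For Rps27l these lengths were 507 and 499 nucleotides, the first in replicate 1. Rps27rt, outside the naming rule, held a further 245 and 119 counts. The part of the short model and of Rps27rt in the lead of Rps27l, by TPM or by counts, was not tested. In the opposite direction, Rpl22l1 had 8.61 and 11.0 TPM, or 39.6% and 43.1% of Rpl22 with 21.8 and 25.6 TPM. Rpl7l1, whose yeast relative acts in large subunit assembly, had 4.08 and 6.18 TPM, or 5.31% and 5.89% of Rpl7 with 76.8 and 105 TPM.

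The paralogs known from muscle and testis were at or near 0. Rpl3l, a heart and skeletal muscle gene, had 17 counts (0.0502 TPM) in replicate 1 and 0 in replicate 2, against 46.2 and 74.1 TPM for Rpl3. Replicate 1 was also the library with skeletal muscle marker RNA, 2880 counts against 30 in replicate 2, and its part in the Rpl3l counts was not tested. Rpl39l, expressed in male germ cells, had 0 counts and 1 count, against 19.1 and 31.0 TPM for Rpl39. Rpl10l, a testis retrogene of the X-linked Rpl10, had 0 counts in both. A count of 0 allows up to 3 counts, here 0.0117 and 0.0181 TPM per library, so Rpl10l was at least 11023-fold and 10561-fold lower than Rpl10. The 10 germ cell markers held 9 and 7 counts in sum, with counts in 1 and 2 of 10.

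Reads can be assigned to a paralog only where its sequence differs from the parent. The coding sequences of the pair in which the paralog led, and of a pair in which it was not detected, are shown without stop codons, from GENCODE M21, with capitals at each base that differs within the pair. Rps27l lies at chr9:66946086-66949516 (plus strand), Rps27 at chr3:90212522-90213651 (minus), Rpl39l at chr16:10170226-10174911 (plus) and Rpl39 at chrX:37082520-37085402 (minus).
Rps27l: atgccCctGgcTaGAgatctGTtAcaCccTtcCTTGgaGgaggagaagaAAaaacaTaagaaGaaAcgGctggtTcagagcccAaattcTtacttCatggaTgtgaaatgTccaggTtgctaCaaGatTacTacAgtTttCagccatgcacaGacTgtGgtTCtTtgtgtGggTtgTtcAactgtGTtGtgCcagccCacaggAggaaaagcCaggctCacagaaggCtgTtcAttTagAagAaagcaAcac
Rps27: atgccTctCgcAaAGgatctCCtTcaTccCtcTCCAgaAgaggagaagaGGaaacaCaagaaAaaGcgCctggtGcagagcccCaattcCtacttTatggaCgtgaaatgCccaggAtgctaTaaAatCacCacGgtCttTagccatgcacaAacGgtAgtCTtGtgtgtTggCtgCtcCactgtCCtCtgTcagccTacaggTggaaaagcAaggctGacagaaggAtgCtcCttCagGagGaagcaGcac
Rpl39l: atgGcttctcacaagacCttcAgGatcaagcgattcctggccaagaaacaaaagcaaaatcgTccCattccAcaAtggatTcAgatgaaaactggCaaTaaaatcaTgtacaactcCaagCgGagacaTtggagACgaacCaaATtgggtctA
Rpl39: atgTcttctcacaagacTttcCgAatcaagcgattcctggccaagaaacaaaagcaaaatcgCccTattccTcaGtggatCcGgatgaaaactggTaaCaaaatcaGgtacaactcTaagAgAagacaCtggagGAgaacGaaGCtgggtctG
Rps27l and Rps27 differed at 60 of 252 bases (76.2% identical), and the longest identical run was 11 bases. Rpl39l and Rpl39 differed at 23 of 153 bases (85.0% identical), with a longest identical run of 38 bases. Identity in the other pairs was 84.7% for Rpl10l and Rpl10, 73.2% for Rpl3l and Rpl3, 68.2% for Rpl22l1 and Rpl22 and 54.0% for Rpl7l1 and Rpl7.

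**Figure D2:**
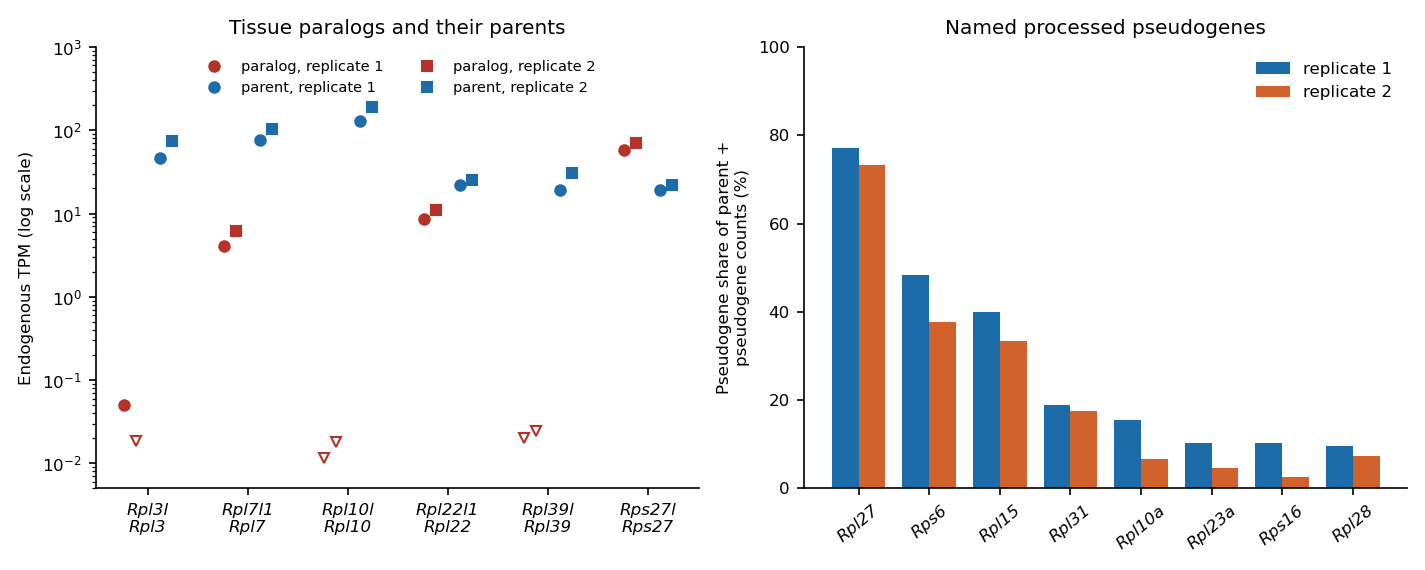
Left, endogenous TPM (log axis) of each tissue paralog (red, left of each pair) and its parent (blue), with circles for replicate 1 and squares for replicate 2; open triangles mark the limit of 3 counts where a paralog had 3 counts or fewer. Right, the counts on named pseudogenes as a percent of parent plus pseudogene counts, per library, for the 8 core genes with the highest values. Rps27l lies above Rps27 in both libraries, and Rpl27 has the largest pseudogene share.

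Processed pseudogenes are copies of mRNAs and can share reads with their parents. The 248 named pseudogenes, whose symbol is that of a core member followed by -ps, held 22496 and 17484 counts in sum. Of them, 18 reached 1 TPM in both libraries. Pseudogenes with other symbols, such as Rps4l with 387 and 481 counts, are left out of these sums and shares. Of the 77 core genes, 55 had a named pseudogene. In 35 of these the pseudogenes held under 1% of the joint counts in both libraries, and in 4 they held over 10% in both. For Rpl27 the pseudogenes held 77.1% and 73.4%, nearly all of it Rpl27-ps3 with 3688 and 3275 counts against 1093 and 1190 for Rpl27. Parent and pseudogenes together came to 53.4 and 74.9 TPM, beside the core median of 47.2 and 68.1 TPM. Rps6, whose protein is the target of the S6 kinases, had 48.2% and 37.8% of joint counts on pseudogenes, chiefly Rps6-ps4 with 6241 and 4701 counts. Rpl15 had 39.9% and 33.5%, and Rpl31 18.9% and 17.4%. With pseudogenes added to all parents, the SD of log2 TPM across the core was 0.98, against 1.04 without (means of both libraries).

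The posterior SD that the authors' quantification gives for each count measures how far the division of shared reads is undecided. No core gene exceeded 5% of its count, and 10 of 77 (13.0%) exceeded 1%, against 2.56% of the 7302 other protein-coding genes tested. The largest values were 3.73% for Rpl27, 2.74% for Rpl24, 2.60% for Rpl5, 1.80% for Rps6 and 1.33% for Rps27.

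The libraries were compared by the log2 ratio of replicate 1 over replicate 2, from TMM-scaled CPM, which is counts per library size, plus 0.5 CPM, which has no replicate check. The counting intervals cover counting error only. Of the 77 core genes, 0 lay over 2-fold apart, against 2.36% of the 7702 genes tested, and 0 lay over 1.5-fold apart, against 8.45%. Ratios were below 0 in 47 of 77 (61.0%), against 44.5% of all genes tested. The core median was -0.10, with an interquartile range of -0.21 to 0.07, beside 0.04 and -0.16 to 0.23 for all genes tested. The SD was 0.21 across core genes, 0.46 across all genes and 0.60 across the 1501 other protein-coding genes with a mean of 10 TPM or more. Ratios across all genes ran from -4.65 to 7.96, and such extremes widen an SD. The interquartile range of the 1501 genes was -0.09 to 0.29, so by this range the core stood less apart than by SD. How many members lay below 0 depended on the scaling: of the 80 tested it was 48 with TMM, 76 with spike-ins and 80 with deposited TPM, beside 44.5%, 82.2% and 93.0% of all genes. The scaling moved all genes together: the median was -0.41 for the family and -0.27 for all genes with spike-ins, and -0.60 and -0.51 with deposited TPM.

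**Figure D3:**
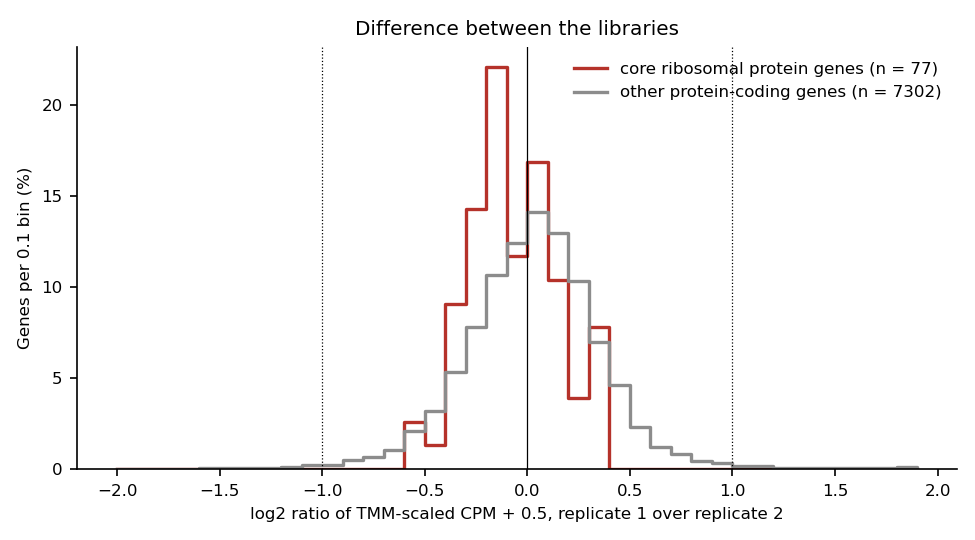
Percent of genes per 0.1 bin of the log2 ratio of TMM-scaled CPM + 0.5, replicate 1 over replicate 2, for 77 core ribosomal protein genes (red) and 7302 other protein-coding genes (grey; values beyond the axis not drawn). Dotted lines mark 2-fold, and the core genes stay between -0.53 and 0.36.

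With TMM, the 95% counting interval lay below 0 in 44 core genes, or 57.1%, against 32.5% of all genes tested, and above 0 in 22, or 28.6%, against 42.4%. At these depths most genes differed between the libraries by more than counting error, and the split moves with the scaling as given above. Farthest below 0 were Rps21 at -0.53 (interval -0.59 to -0.48) and Rps29 at -0.53 (-0.68 to -0.42). The stalk genes Rplp2 and Rplp1 followed at -0.46 and -0.38, then Rps2 at -0.36. Counts for Rps21 were 4495 and 6122, and for Rplp1 15885 and 19385, higher in replicate 2 although that library was the smaller. Farthest above 0 with TMM, though below 0 with deposited TPM, were Rpl22 at 0.36 (0.30 to 0.43), Rps18 at 0.35 (0.32 to 0.38), Rpl35a at 0.34, Rpl17 at 0.32 and Rpl23 at 0.32. Counts for Rpl22 were 4503 and 3282, and for Rps18 21782 and 16043. Large subunit genes had a median ratio of -0.10 and small subunit genes -0.10, so neither subunit led. GC content moved with the ratio, with a rho of -0.41 over 76 core genes and -0.43 over 7265 other protein-coding genes, which share the libraries and gene models. Its part in the differences between members was not tested, and neither was that of the other-tissue RNA given above.

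Each core gene's transcripts were described by the deposited IsoPct, the percent of the gene's TPM on a transcript, in the 76 core genes that had at least 10 TPM in each library. The median share of the most abundant transcript was 97.5% and 97.7%, against 93.8% and 93.4% in 1250 other protein-coding genes of that level. This share exceeded 90% in both libraries in 47 of 76 core genes (61.8%), against 53.4% of the others. Of the 76 core genes, 20 had a single listed transcript, and the median number listed was 4. Those 20 exceed the cut by construction, because their only transcript holds the whole share. How many of the 1250 others have a single listed transcript is not given here. The part of the annotation in these contrasts was therefore not tested. Coding transcripts held 91.2% ± 0.486 of the family's TPM (SD, n = 2), against 92.4% ± 0.257 for the others. Retained introns held 4.54% ± 0.0866 against 3.25% ± 0.0521, and nonsense-mediated decay transcripts 0.779% ± 0.0248 against 1.04% ± 0.0717. By counts, retained introns held 3.26% against 1.41%, and nonsense-mediated decay transcripts 0.793% against 0.726%. These are pooled sums, so single abundant genes can carry them. Rps9, with a leading retained intron, and Rpl12, with a leading nonsense-mediated decay transcript, are given below. The shares without them were not computed.

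The most abundant transcript was the same in both libraries in 72 of 76 core genes, against 97.1% of the other genes. The 20 core genes with a single listed transcript are among the 72 and could not change leader. The 4 that differed by IsoPct were Rps19, Rps10, Rps28 and Rps16, all of the small subunit. Rps19, the gene most often mutated in human Diamond-Blackfan anaemia, had the lowest top share: Rps19-202 led in replicate 1 with 33.5%, and Rps19-210 in replicate 2 with 27.5%. In Rps10, Rps10-208 led in replicate 1 with 44.9% and Rps10-201 in replicate 2 with 50.2%. In Rps28, Rps28-205 led with 47.3% and then Rps28-203 with 52.2%. In Rps16, the retained intron transcript Rps16-202 led replicate 1 with 50.9%, and the coding Rps16-201 led replicate 2 with 51.0%. By share of expected counts, the leader was the same in 74 of 76, and Rps10 and the large subunit gene Rpl5 differed. On that scale Rps19-201, Rps28-203 and Rps16-201 led in both libraries. Other divided genes kept their leader by IsoPct: Rpl10-211 held 48.8% and 51.7%, beside 46.7% and 42.3% on Rpl10-201. The annotated model of Rpl10-211 ends within the coding sequence, with 603 coding nucleotides against 642 in Rpl10-201. Rps14-201 held 49.6% and 60.1% of Rps14, and Rpl7-201 54.5% and 57.96% of Rpl7.

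In 6 of the 76 genes (7.89%) a transcript not annotated as coding led in both libraries, against 3.52% of the others. Rpl12-201, a nonsense-mediated decay transcript, held 61.0% and 57.7% of Rpl12, and the coding Rpl12-203 8.80% and 12.2%. Rpl5-202, a retained intron, held 55.1% and 77.2% of Rpl5, and the coding Rpl5-201 36.7% and 17.9%, the widest movement between libraries among the genes named here. Rps6-202 held 65.4% and 70.3% of Rps6, and Rpl30-205 50.3% and 56.0% of Rpl30, both processed transcripts. The others were Rps9-206, a retained intron with 65.7% and 65.4%, and a short Rpl13a transcript of 338 nucleotides, not in the newer annotation, with 52.6% and 61.7%.

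Because IsoPct is per length, short transcripts can lead on few fragments. In Rps9, the coding Rps9-201 held 7547 and 6787 counts, against 4704 and 4354 for the leading Rps9-206. In Rpl13a, Rpl13a-201 held 15263 and 13653 counts, against 2775 and 3917 for the short transcript. The contrast was sharpest in Rps15a: Rps15a-203, of 250 nucleotides, held 89.95% and 89.2% of IsoPct on 672 and 767 counts, while Rps15a-204, of 3721 nucleotides, held 9.49% and 10.2% on 6242 and 6249 counts. Rps15a was singled out after its values were seen. By share of counts, the leading transcript was another one in 13 genes in replicate 1 and 10 in replicate 2, and the leader was non-coding in both libraries in 3 genes in place of 6.

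**Figure D4:**
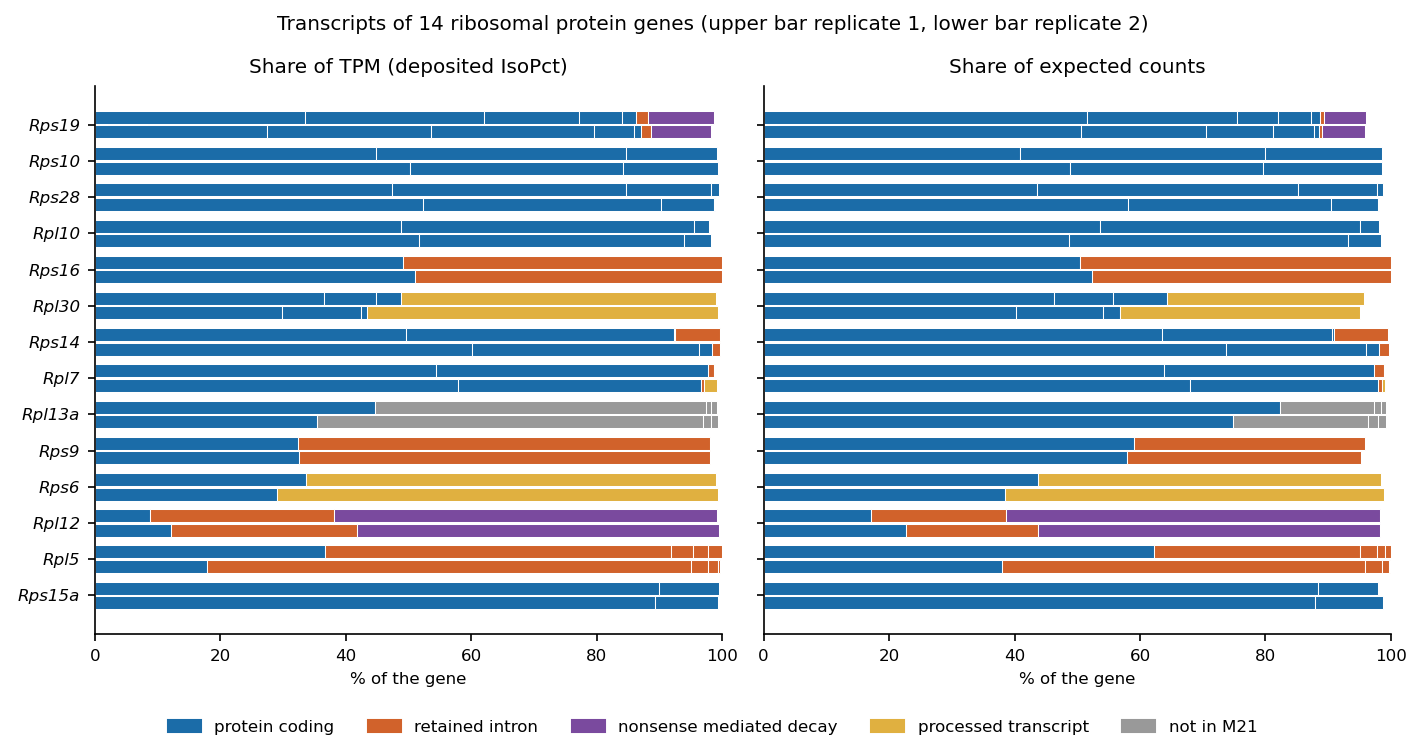
Share of each listed transcript in 14 ribosomal protein genes, as deposited IsoPct (left) and as percent of the gene's expected counts (right), with the upper bar for replicate 1 and the lower bar for replicate 2, coloured by annotated transcript type; minor transcripts are not drawn, so bars can end below 100. Rps9, Rpl13a and Rpl30 have less non-coding or unannotated signal on the count scale than by IsoPct.

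The members had at the median a compact gene structure, which the rule did not use. The transcript leading by mean IsoPct had a median of 5 exons, against 8 in the other genes at 10 TPM. Its coding sequence had a median of 444 against 1011 nucleotides, and its 3' UTR 64 against 438.5 nucleotides. The 5' UTR median was 81 against 121 nucleotides, and GC content 51.3% against 49.9%. Coding and UTR medians cover the 71 core genes and 1216 others whose leader has an annotated coding sequence. Leaders by IsoPct can be short ones, as in Rps15a, and single members differed: Rps20-203 has a 3' UTR of 3167 nucleotides. A small nucleolar RNA gene lay inside 30 of the 77 core genes on the same strand (39.0%), against 1.52% of the other genes at 10 TPM. These 58 snoRNA genes included 5 in Rpl4 and 4 in Rpl13a. The host genes had a median of 48.3 TPM and the other core genes 64.5 TPM (means of both libraries). Core genes lay on 19 chromosomes, 14 of them on chromosome 7.

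Of the ribosomal protein genes outside the naming rule, 5 were found and all 5 were detected in both libraries. Rack1, a scaffold on the small subunit, had 55.5 and 97.0 TPM, and Fau, which encodes ribosomal protein S30 fused to a ubiquitin-like protein, 45.3 and 67.6 TPM. Rps27rt, named after its value was seen, had 4.89 and 3.50 TPM, below every core gene. Of 14 TOP-class translation genes, 14 were detected in both libraries. Eef1a1, the factor that brings aminoacyl-tRNA to the ribosome, had 871 and 1264 TPM, above every core ribosomal protein gene. Tpt1 had 156 and 208 TPM, and the translocation factor Eef2 86.6 and 139 TPM. Their median ratio was 0.06, with 9 of 14 above 0, beside 0.04 and 4272 of 7702 for all genes tested.

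The genes that build ribosomes were far lower than those that encode their proteins. Of 31 assembly factors found, 19 were detected in both libraries, led by Aamp with 12.3 and 17.3 TPM, Bccip with 7.95 and 11.4 TPM and Eif6, which keeps immature large subunits from joining, with 4.48 and 7.42 TPM. Of 14 genes of RNA polymerase I, which transcribes ribosomal RNA, and its factors, 6 were detected, with Polr1d highest at 5.29 and 7.82 TPM, then Polr2f with 4.05 and 4.69 TPM and Polr1c with 3.76 and 4.86 TPM. Of 15 regulators of TOP mRNAs and mTORC1, 12 were detected. Larp1b had 8.69 and 10.7 TPM, the translation repressor Eif4ebp1 5.44 and 7.68 TPM, and Larp4b 4.71 and 6.37 TPM. None of the genes tested in these lists lay over 2-fold apart, and list medians ran from -0.06 for the proteins outside the rule to 0.10 for assembly factors.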

How the data were processed

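Total RNA of 2 liver libraries, per the labels, was quantified by the authors in each library against mm10 with GENCODE M4 models. The software for alignment and quantification is not given in the labels or headers used here. Expected counts, per the file headers, are estimated fragments with shared reads divided among genes. The deposited TPM and FPKM values are scaled to effective length. The deposited percent is the share of a transcript in its gene (IsoPct). The deposited signal columns are the posterior SD of each count, which was used, and interval bounds, which were not.

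TPM was rescaled without spike-ins. Symbols, types and coordinates came from GENCODE M21 of the same assembly (42462 of 43346 genes matched). Expected counts were rounded for TMM (edgeR 4.0.16, R 4.3.3; factors 0.950 and 1.05) and DESeq2 1.42.0. Ratios used a pseudocount of 0.5 CPM, equal to 39.8 and 37.4 counts, which understates the change of low genes, and genes with a mean of at least 1 TPM and 10 counts, which 80 of 83 members passed. Counting intervals are exact binomial at 95%, from raw counts without the pseudocount. The arithmetic of the ratio was checked on simulated counts that vary by counting error only, so the check does not bear on other differences between the libraries. Other steps used Python 3.11.15, pandas 2.3.3, numpy 2.4.6 and scipy 1.17.1. Alternative scalings, units, thresholds and left-out libraries were tried.

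Members and lists were chosen with earlier results of these data known. Named genes are the 5 highest and 5 lowest of each subunit, paralogs and parents, the 5 farthest apart in each direction, the 10 with the lowest top transcript share, those whose leading transcript differed, the 5 largest posterior SDs and the 3 highest of each other list; genes named outside it were chosen after their values were seen. Some genes that the rule takes are not reported here by name, but stay in all counts and medians.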

Additional observations from a re-analysis of the deposited data

Results flagged for a closer look

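Reads on the named ribosomal protein pseudogenes lay outside the family that was measured, and the libraries hold no control sample for them. Pseudogenes with other symbols are not in the sum. Their summed expected counts were 22496 in replicate 1 and 17484 in replicate 2. Whether these fragments came from the pseudogenes or from the parents was not tested.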

How the results depend on the processing

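Of 49 alternative values, 18 moved and none changed direction, which only the log2 ratios could do. A move was over 1 SD of the libraries, over the counting interval for ratios, which have no replicate spread, or over 1.5 times for counts. Leaving out 1 of 2 libraries cannot shift the mean of both by over 1 SD. Such values of means were therefore bound to count as unmoved. The family's share of 0.556% was 3.86% over protein-coding TPM and 0.900% of counts. The core median of 57.7 TPM was 402 with protein-coding TPM and 183 as FPKM. The log2 of small over large subunit medians, 0.20, was 0.16 with annotated lengths and 0.24 with pseudogenes added. The SD of log2 level, 1.04, was 0.98 with pseudogenes added. The median ratio of the 80 members tested, -0.09, was -0.076 with DESeq2 size factors, -0.41 with spike-ins, -0.24 with library totals, -0.60 with deposited TPM, -0.18 with protein-coding TPM and -0.066 without the filter. With deposited TPM, 2 of 80 members lay over 2-fold apart in place of 0, beside 713 of the 7696 genes tested on that scale. The median top transcript share of 97.6% was 97.3% from posterior mean TPM, 97.5% (97.45) at 1 TPM and 97.8% by counts. At a posterior SD of 1%, 10 members were uncertain, in place of 0 at 5%. The count shares, the pseudogene sums, the range without Rpl27 and the 1.5-fold threshold were chosen after seeing the data.

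With single libraries left out, the share ran from 0.445% to 0.667%, the core median from 47.2 to 68.1 TPM, the subunit log2 ratio from 0.17 to 0.22, the SD of log2 level from 1.02 to 1.06, detected members stayed at 80 and the top share ran from 97.49% to 97.66%. No paired analysis was possible because both libraries belong to the same group. With 2 libraries, an SD has 1 degree of freedom. Depth limits the statement on Rpl10l, Rpl39l and Rpl3l, and Rps27 rests on few counts.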
